A study of Mus musculus with 2 samples.

Results

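Expression of 8 genes of the cellular response to low oxygen was examined across mouse liver: Hif1a and Epas1, which encode the hypoxia-inducible factor alpha subunits HIF-1α and HIF-2α, the oxygen sensors Egln1 and Egln3, and the target genes Vegfa, Bnip3, Ndrg1 and Pdk1. The genes were taken by symbol, and all 8 were among the 19465 genes of the count tables. The Visium probe assay was run on fixed, embedded tissue: neighbouring probes bound to an RNA are joined, caught at a barcoded spot under the section, and counted once per molecular identifier (UMI). The AEG-1-WT group was 1 wild-type female, and the AEG-1-C75S group was 1 female littermate with a CRISPR/Cas9 knock-in that replaces the palmitoylated cysteine of AEG-1, the product of Mtdh, with serine in every cell. Both mice were 8 weeks old and naïve, without treatment, came from matings of heterozygotes, and gave 1 section of 5 μm from the same lobe. The comparison between them therefore holds 1 animal on each side, no test between the genotypes was possible, and the ratios compare these libraries and not the genotypes. The probes count Mtdh RNA without reading the edited codon.

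Cells measure oxygen through prolyl hydroxylases, which use it to mark HIF alpha subunits for destruction through the von Hippel-Lindau complex. When oxygen is low the subunits escape, pair with ARNT and bind short motifs near their target genes, so the regulation acts mainly on the protein and less on the mRNA of the subunits. In the liver, blood enters the lobule at the portal tracts, loses oxygen along the sinusoids and leaves at the central vein, so that pericentral hepatocytes live at a lower oxygen tension than periportal ones.

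Spots were ordered in each section by the ratio of Cyp2f2 plus 1 over Cyp2e1 plus 1 UMIs, a periportal over a pericentral gene, and cut into 5 bins of equal size, from bin 1 (portal) to bin 5 (central). Oxygen itself was not measured. Bins are ranks within a section, so a bin of the same number need not hold the same lobule positions in both sections. Bin 5 held ratios up to 0.0606 for AEG-1-WT, against 0.0865 for AEG-1-C75S. Bin 3 ran from 0.115 to 0.295 for AEG-1-WT, against 0.157 to 0.357 for AEG-1-C75S. After removal of spots above 50000 UMIs, 2309 spots with 42246988 UMIs were kept in AEG-1-WT and 2163 spots with 41674347 UMIs in AEG-1-C75S, with medians of 16830 and 18808 UMIs per spot. The sections shared 1887 spot barcodes, none with equal counts. All 5 hepatocyte markers looked at were abundant in both sections, Alb at 127352 and 120952 UMIs at a scale of 1000000 UMIs in all (CPM). Genes outside the ratio followed the order. The periportal gene Hal went from 363 to 83.9 CPM in AEG-1-WT, and from 320 to 83.8 CPM in AEG-1-C75S, and the pericentral gene Oat went from 218 to 1844 CPM and from 181 to 1414 CPM. The sections differed in other respects. Of the immediate early genes, 7 of 7 were over 1.5-fold higher in AEG-1-C75S (median log2 ratio 1.53), and of the connective tissue markers 5 of 5 were over 1.5-fold lower (median −1.48). Each spot covers several cells, so fewer cells of a type and less RNA per cell cannot be told apart.

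Promoter sequences of 6 of the 8 genes were found in the RefSeq table of the mouse build GRCm38.p6 (mm10), and Epas1 and Ndrg1 had no entry. The 250 bases before the start site of 4 genes are shown, because 3 of them (Egln3, Bnip3 and Pdk1) were higher toward the central vein while Hif1a was not. They are written 5′ to 3′ on the strand of the gene, and the capitals mark the HIF core motifs ACGTG and GCGTG read on either strand, together with the E-box CACGTG, which contains ACGTG on both strands and was counted under both. The Egln3 stretch (chr12:54203875-54204124, minus strand) holds 1 ACGTG at position -229 from the start site, the Bnip3 stretch (chr7:138909507-138909756, minus strand) 2 ACGTG from its E-box and 3 GCGTG, the Pdk1 stretch (chr2:71872974-71873223, plus strand) 1 GCGTG at position -78, and the Hif1a stretch (chr12:73907617-73907866, plus strand) 3 ACGTG, 2 of them in its E-box. The start site that the table gives for Hif1a lies inside the annotated gene, which begins upstream of it, so the stretch precedes 1 of its start sites.
Egln3: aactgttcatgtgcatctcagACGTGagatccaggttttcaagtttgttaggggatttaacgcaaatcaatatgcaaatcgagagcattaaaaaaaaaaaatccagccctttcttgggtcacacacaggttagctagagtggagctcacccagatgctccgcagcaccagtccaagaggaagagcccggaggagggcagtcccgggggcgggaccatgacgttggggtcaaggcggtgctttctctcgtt
Bnip3: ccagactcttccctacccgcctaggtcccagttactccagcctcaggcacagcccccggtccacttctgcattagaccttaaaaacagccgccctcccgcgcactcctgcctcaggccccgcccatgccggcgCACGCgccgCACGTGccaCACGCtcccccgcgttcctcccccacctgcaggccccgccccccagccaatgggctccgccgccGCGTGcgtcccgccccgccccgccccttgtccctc
Pdk1: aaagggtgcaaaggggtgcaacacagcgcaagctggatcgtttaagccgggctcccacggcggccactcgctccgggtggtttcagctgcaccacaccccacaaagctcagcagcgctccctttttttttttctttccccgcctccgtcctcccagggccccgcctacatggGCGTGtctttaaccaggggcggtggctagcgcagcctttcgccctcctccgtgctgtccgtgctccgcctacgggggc
Hif1a: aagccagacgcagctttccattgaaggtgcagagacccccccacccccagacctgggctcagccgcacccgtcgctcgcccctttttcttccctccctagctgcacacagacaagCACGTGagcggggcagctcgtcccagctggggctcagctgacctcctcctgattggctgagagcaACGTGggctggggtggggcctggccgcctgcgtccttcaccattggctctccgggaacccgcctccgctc
Of 32851 mouse promoter stretches of the same length, 16.6% held ACGTG, 28.2% held GCGTG, 38.6% held either and 6.02% held the E-box. The Egln1 stretch (chr8:124949255-124949504, minus strand) held 1 of each core motif. The Vegfa stretch at its first start site (chr17:46032378-46032627, minus strand) held none, and that at its second (chr17:46025164-46025413, minus strand) held 1 of each. A second Pdk1 start site (chr2:71874654-71874903, plus strand) had a stretch with none. The stretches at the second start sites of Vegfa and Pdk1 lie inside the annotated genes, so they hold transcribed gene sequence. A match describes letters only, and a relation between motifs and levels along the axis was not tested.

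Along the axis the alpha subunits Hif1a and Epas1 and the sensor Egln1 were nearly flat, while the sensor Egln3 and the targets Ndrg1, Bnip3 and Pdk1 were higher in pericentral spots. The largest ratios were those of Egln3 and Ndrg1, each over 1.5-fold higher in bin 5 than in bin 1 in both sections. Bnip3 and Pdk1 were higher by smaller ratios, and Vegfa was close to the median gene in both sections.

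**Figure D1:**
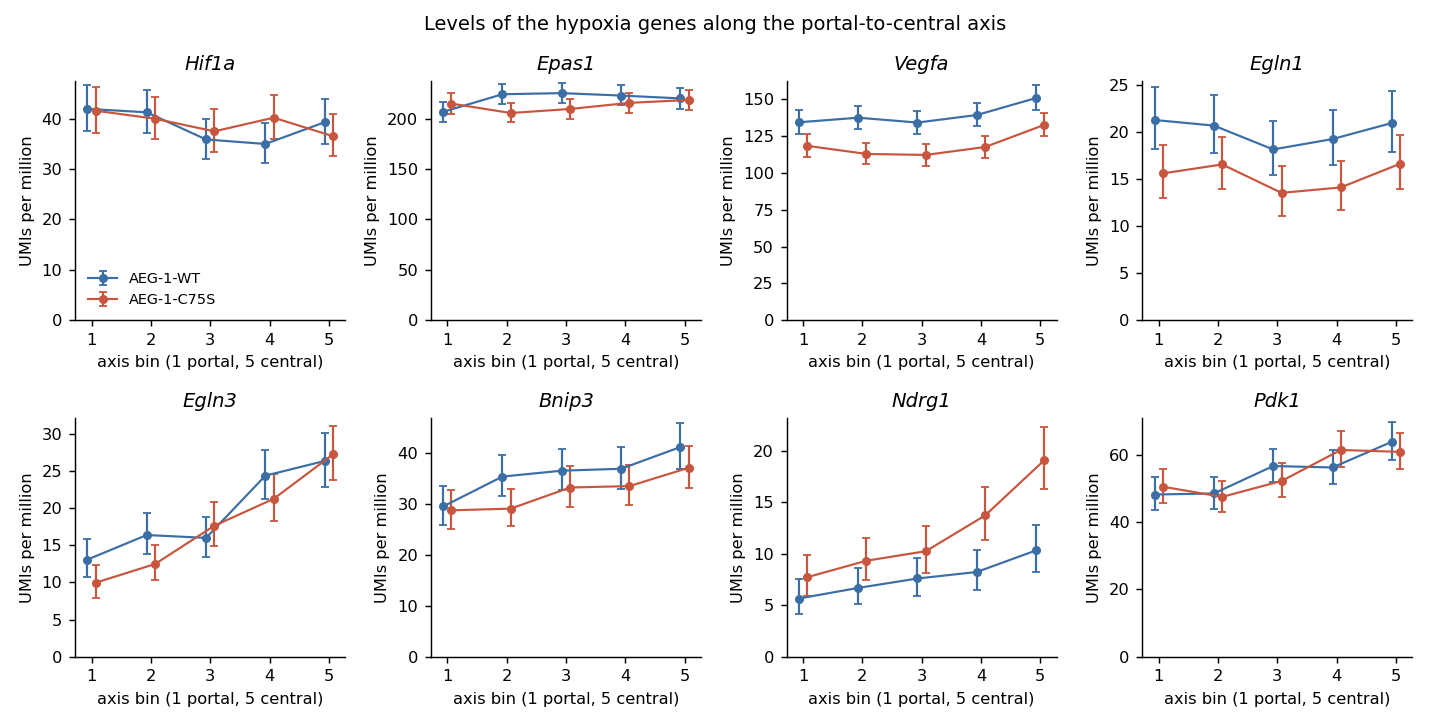
Level of each gene (y axis, CPM, from 0) in bins 1 (portal) to 5 (central) of the axis (x axis) in the AEG-1-WT section (blue) and the AEG-1-C75S section (red). Points are sums over all spots of a bin and bars are 95% exact Poisson intervals, which cover counting error only. Egln3, Bnip3 and Ndrg1 climb toward the central end, Hif1a and Epas1 stay level, and the Ndrg1 points of AEG-1-C75S lie above those of AEG-1-WT in all 5 bins.

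Hif1a (chr12:73901324-73947554) encodes the alpha subunit found in nearly all cells. Its level was 38.6 CPM in AEG-1-WT (1631 UMIs, 95% exact Poisson interval 36.8 to 40.5 CPM) and 39.2 CPM in AEG-1-C75S (1633 UMIs, 37.3 to 41.1 CPM). From bin 1 to bin 5 it measured 42.0, 41.3, 35.9, 35.0 and 39.3 CPM in AEG-1-WT and 41.6, 40.0, 37.5, 40.2 and 36.5 CPM in AEG-1-C75S. All 10 values lay within a narrow band, with the highest in bin 1 of both sections. The log2 ratio of bin 5 over bin 1 was −0.09 in AEG-1-WT (95% counting interval −0.32 to 0.13) and −0.19 in AEG-1-C75S (−0.42 to 0.04). Relative to the median gene of the same comparison, it was −0.21 and −0.28.

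Epas1 (chr17:86753864-86833410) encodes the alpha subunit first described in endothelium and also used by hepatocytes. Its level was 220 CPM in AEG-1-WT (9304 UMIs) and 213 CPM in AEG-1-C75S (8872 UMIs). Along the axis it measured 207, 224, 225, 223 and 220 CPM in AEG-1-WT and 215, 206, 210, 216 and 219 CPM in AEG-1-C75S. The lowest AEG-1-WT value was at the portal end, and no bin of either section stood far from the others. The log2 ratios of bin 5 over bin 1 were 0.09 (−0.01 to 0.19) and 0.02 (−0.07 to 0.12), and relative to the median gene they turned to −0.03 and −0.07. Of the other HIF subunits, Arnt, the common partner, had log2 ratios along the axis of 0.11 (−0.10 to 0.33) and 0.21 (−0.00 to 0.42). Hif3a had only 16 and 9 UMIs and Arnt2 had 1 UMI in AEG-1-WT, with 0 in AEG-1-C75S, which allows up to 0.0720 CPM, so neither could be compared at this depth.

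Egln1 (chr8:124908587-124949254) encodes PHD2, the main hydroxylase that sets HIF-1α stability at normal oxygen. It measured 21.2, 20.6, 18.1, 19.2 and 20.9 CPM from portal to central in AEG-1-WT and 15.6, 16.5, 13.5, 14.1 and 16.6 CPM in AEG-1-C75S. Both sections had their lowest value in bin 3 and similar values at the ends, and each AEG-1-C75S value lay below the AEG-1-WT value of the same bin. The log2 ratio along the axis was −0.02 (−0.34 to 0.30) in AEG-1-WT, against 0.09 (−0.27 to 0.45) in AEG-1-C75S.

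Egln3 (chr12:54178981-54203874) encodes PHD3, a hydroxylase whose own gene is a HIF target and which so belongs to the feedback on HIF. It measured 13.1, 16.4, 16.0, 24.4 and 26.3 CPM in AEG-1-WT (104, 142, 143, 213 and 209 UMIs). It measured 9.97, 12.5, 17.6, 21.2 and 27.2 CPM in AEG-1-C75S (80, 111, 141, 178 and 228 UMIs). The last 2 bins were above the first 3 in both sections, and the AEG-1-C75S section rose at every step. Bin 5 over bin 1 was 2.02-fold in AEG-1-WT (log2 ratio 1.01, 0.66 to 1.36) and 2.73-fold in AEG-1-C75S (1.45, 1.08 to 1.84). These were the largest axis ratios among the 8 genes, at percentiles 98.4 and 99.4 of all genes compared. Egln3 stayed past 1.5-fold under each of 10 other settings in each section, with log2 ratios of 0.89 to 1.22 in AEG-1-WT, with 1.18 to 1.65 in AEG-1-C75S.

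Vegfa (chr17:46016993-46032377) encodes the growth factor that hepatocytes send to the sinusoidal endothelium. It measured 134, 138, 134, 139 and 151 CPM in AEG-1-WT and 118, 113, 112, 118 and 133 CPM in AEG-1-C75S. Bin 5 was the highest in both sections while the other 4 lay close together. The log2 ratios along the axis were 0.17 (0.05 to 0.29) and 0.16 (0.04 to 0.29), which came to 0.05 and 0.07 relative to the median gene.

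Bnip3 (chr7:138890836-138909506) encodes a mitochondrial outer membrane protein that calls autophagy to mitochondria. It measured 29.5, 35.4, 36.6, 36.9 and 41.2 CPM in AEG-1-WT and 28.8, 29.1, 33.3, 33.5 and 37.1 CPM in AEG-1-C75S. Each value was above the one before it in both sections. The log2 ratios of bin 5 over bin 1 were 0.48 (0.23 to 0.73) and 0.37 (0.12 to 0.62), which is 1.40-fold and 1.29-fold.

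Ndrg1 (chr15:66929318-66969641) encodes a cytoplasmic protein known for its induction by hypoxia and other stress. It measured 5.66, 6.69, 7.60, 8.23 and 10.3 CPM in AEG-1-WT (45, 58, 68, 72 and 82 UMIs). It measured 7.72, 9.33, 10.3, 13.7 and 19.1 CPM in AEG-1-C75S (62, 83, 82, 115 and 160 UMIs). Like Bnip3 it was higher at each step in both sections, and 3.81% of 9732 genes did so. Bin 5 over bin 1 was 1.83-fold in AEG-1-WT (log2 ratio 0.87, 0.33 to 1.43) and 2.47-fold in AEG-1-C75S (1.31, 0.87 to 1.75). The AEG-1-WT value rests on 45 and 82 UMIs, and after 1 random thinning of each spot to 3000 UMIs its log2 ratio was 0.26, from 5 and 6 UMIs. With equal weight per spot, which uses all UMIs, it was 0.77.

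Pdk1 (chr2:71873215-71903858) encodes a kinase that switches off pyruvate dehydrogenase and so keeps pyruvate out of the mitochondrial citrate cycle. It measured 48.1, 48.4, 56.6, 56.2 and 63.8 CPM in AEG-1-WT and 50.5, 47.4, 52.1, 61.3 and 60.8 CPM in AEG-1-C75S. The portal bins 1 and 2 were the lowest in AEG-1-WT and the central bins 4 and 5 the highest in AEG-1-C75S. The log2 ratios were 0.41 (0.21 to 0.60) and 0.27 (0.08 to 0.46).

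Past a ratio of 1.5 along the axis were 2 of the 8 genes in each section, Egln3 and Ndrg1 in both, all of them higher at the central end. In AEG-1-WT 5.88% of 9931 genes were higher by that ratio and 3.93% lower, in AEG-1-C75S 5.25% of 9922 genes were higher and 2.73% lower, and 2.86% of 9732 genes were higher in both. The counting interval lay above 0 for the same 5 genes (Vegfa, Egln3, Bnip3, Ndrg1 and Pdk1) in both sections, beside 14.7% of genes. Counting intervals are narrower for genes with more UMIs, and the shares of all genes given beside them were not matched for UMIs. The median gene itself had a log2 ratio of 0.12 in AEG-1-WT, with 0.10 in AEG-1-C75S. The median of the 8 genes was 0.29 and 0.22. Against the median gene, the interval lay above for 4 genes in AEG-1-WT (Egln3, Bnip3, Ndrg1 and Pdk1) and for 3 in AEG-1-C75S (Egln3, Bnip3 and Ndrg1), and below for Hif1a in AEG-1-C75S. The share of all genes with intervals beyond the median gene was not counted, so these counts have no background beside them. Other lists moved along the same axis. Sinusoidal endothelium markers went from 365 to 490 CPM in AEG-1-WT and from 412 to 479 CPM in AEG-1-C75S, with 1 of 4 compared past 1.5-fold in AEG-1-WT and 0 of 4 in AEG-1-C75S. Stellate cell markers went from 450 to 602 CPM and from 538 to 760 CPM, with 1 of 5 and 2 of 5 higher past 1.5-fold. Cholangiocyte markers went from 262 to 30.8 CPM and from 155 to 37.1 CPM, with 4 of 4 and 3 of 3 lower. Connective tissue markers went from 214 to 97.9 CPM and from 82.6 to 79.9 CPM, with 4 of 5 and 3 of 5 lower. Red blood cell markers went from 589 to 804 CPM and from 611 to 477 CPM, with 1 of 4 higher in AEG-1-WT and 0 of 4 past 1.5-fold in AEG-1-C75S. Kupffer cell markers went from 850 to 731 CPM and from 1074 to 959 CPM, with 1 of 6 lower in AEG-1-WT and 0 of 6 in AEG-1-C75S. Immediate early genes went from 249 to 277 CPM and from 543 to 730 CPM, with 1 of 5 and 4 of 7 past 1.5-fold. No marker of these lists was at 0 over a whole section, and their part in the ratios of the 8 genes was not tested. Vascular endothelium markers went from 205 to 273 CPM and from 202 to 247 CPM. Past 1.5-fold, 2 of 5 were higher and 1 of 5 lower in AEG-1-WT, with 0 of 4 in AEG-1-C75S. The part of the vascular endothelium markers was not tested either. Within 10 classes of total UMIs per spot, Egln3 had log2 ratios of 1.03 and 1.39 and Ndrg1 0.76 and 1.34.

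**Figure D2:**
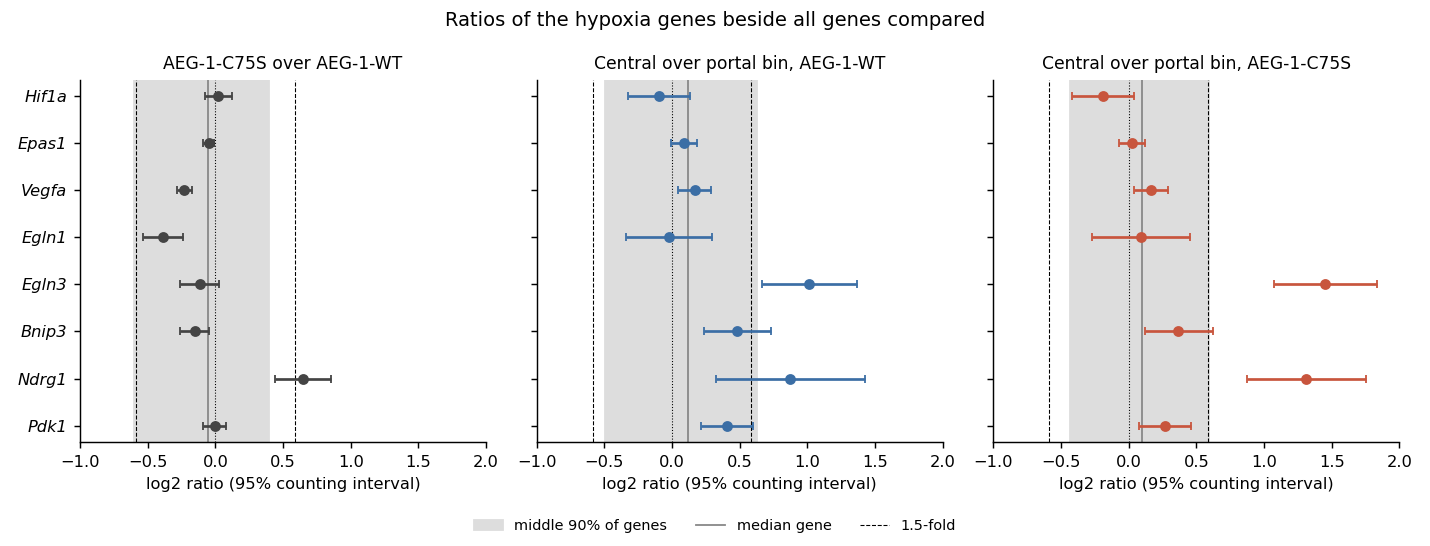
Log2 ratio (x axis) of each gene (y axis) between the sections (left, AEG-1-C75S over AEG-1-WT) and along the axis in AEG-1-WT (middle) and AEG-1-C75S (right), with 95% counting intervals. The grey band holds the middle 90% of all genes compared, the grey line is their median and the dashed lines mark 1.5-fold. Egln3 and Ndrg1 lie right of the band along the axis in both sections, and only Ndrg1 lies right of it between the sections.

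The axis changes were then compared between the sections by their difference, which sets bins of the same rank side by side. Genes outside the ratio differed as well. Of 4 pericentral genes, 4 had intervals below 0 (median −0.17), so they were less steep in AEG-1-C75S. Of 5 periportal genes, 2 had intervals above 0 and 1 below (median 0.07). The part of unlike bin ranges in the differences of the 8 genes was not tested. None of the 8 genes differed by over 1.5-fold (0 of 8, beside 6.23% of 9732 genes), and no counting interval excluded 0 (0 of 8, beside 9.65%). The largest differences were those of Egln3 at 0.44 (−0.06 to 0.94) and Ndrg1 at 0.44 (−0.24 to 1.11), both steeper in AEG-1-C75S, and the intervals reach up to 1.92-fold and 2.16-fold. For Ndrg1 the difference was 1.43 in the thinned counts, which held 5 and 6 UMIs at the ends of AEG-1-WT and 9 and 29 in AEG-1-C75S. For Vegfa the difference was −0.00 (−0.18 to 0.17), the narrowest interval but that of Epas1 (−0.07, −0.20 to 0.07). A smaller limit, 0.32 on the log2 scale in place of 0.58, counted 4 genes along the axis in AEG-1-WT (beside 20.3% higher), 3 in AEG-1-C75S (18.1%), 2 in the difference of axis changes (21.1%), 2 between the whole sections (21.5%) and 17 of the 96 comparisons in marker-rich spots described further on (18.7%).

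Between the whole sections, Ndrg1 was higher in AEG-1-C75S, Egln1 and Vegfa were lower by smaller ratios, and the alpha subunits and Pdk1 were nearly equal. Ndrg1 went from 7.69 CPM (325 UMIs) to 12.0 CPM (502 UMIs), a log2 ratio of 0.65 (0.44 to 0.85) or 1.57-fold. It was the 1 of 8 genes past 1.5-fold, beside 7.49% of 11998 genes either way, 2.29% higher and 5.2% lower. The AEG-1-C75S value was above the AEG-1-WT value of the same rank in 5 of 5 bins, with log2 ratios of 0.43 to 0.89. In bins 1, 2 and 3 the counting interval included 0. The bins are parts of the same 2 libraries, so they are not replicates of the comparison. The share of all genes with 1 direction in 5 of 5 bins was not counted. When the bins and 10 classes of total UMIs were weighted alike in both sections the log2 ratio was 0.53, short of 1.5-fold, and without the spots richest in bile duct and connective tissue markers it was 0.73. In the thinned counts, with 42 and 97 UMIs, it was 1.30. Other lists also differed between the sections. Beside the immediate early genes and connective tissue markers, 6 of 6 Kupffer cell markers had intervals above 0 (median log2 ratio 0.43), with 1 higher past 1.5-fold. Of 5 stellate cell markers, 4 had intervals above 0 and 1 below (median 0.35), with 0 past 1.5-fold. Such intervals were found for 16.3% of all genes above 0 and 29.7% below. Lower past 1.5-fold were 2 of 5 cholangiocyte markers (median −0.46), 2 of 4 red blood cell markers (median −0.54) and 1 of 5 vascular endothelium markers (median −0.11), beside 5.2% of all genes. The part of these lists in the ratio of Ndrg1 was not tested.

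Egln1 measured 19.98 CPM (844 UMIs) in AEG-1-WT and 15.3 CPM (637 UMIs) in AEG-1-C75S, a log2 ratio of −0.39 (−0.54 to −0.24). It was lower in 5 of 5 bins of these 2 libraries, by log2 ratios of −0.45 to −0.32, with an interval that included 0 in bin 2. Vegfa measured 139 CPM (5881 UMIs) and 119 CPM (4952 UMIs), a log2 ratio of −0.23 (−0.28 to −0.17), and was lower in 5 of 5 bins, by −0.28 to −0.18. Bnip3 measured 36.0 and 32.3 CPM (1519 and 1348 UMIs) with a log2 ratio of −0.15 (−0.26 to −0.05). It was also lower in 5 of 5 bins, but its interval included 0 in every bin except bin 2. The remaining genes had log2 ratios of 0.02 (−0.08 to 0.12) for Hif1a, −0.05 (−0.09 to −0.01) for Epas1, −0.12 (−0.26 to 0.03) for Egln3 and −0.00 (−0.09 to 0.08) for Pdk1. In the thinned counts, with 99 and 120 UMIs, the value of Egln3 turned to 0.37. The median gene had −0.05 and the 8 genes a median of −0.08. Intervals above 0 were found for 1 of the 8 genes, beside 16.3% of all genes, and below 0 for 4, beside 29.7%. These shares were not matched for UMIs either. The intervals lay below the median gene for 2 (Egln1 and Vegfa), for which the share of all genes was not counted.

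Other genes of the pathway were taken from lists to place the 8 genes. Of the oxygen sensing and HIF degradation list, 10 genes were compared. Egln3 was past 1.5-fold along the axis in both sections and Cul2, a scaffold of the ubiquitin ligase, in AEG-1-WT (0.63, 0.05 to 1.23), which was seen after the fact. These were 2 of 10 higher in AEG-1-WT and 1 of 10 in AEG-1-C75S, beside 5.88% and 5.25% of all genes. In AEG-1-C75S Cul2 was at −0.47 (−1.03 to 0.09), and the difference of its axis changes was −1.10 (−1.88 to −0.33). In the difference of axis changes, 1 of the 10 was higher and 2 were lower past 1.5-fold, beside 3.22% and 3.01% of all genes. None of the 10 was past 1.5-fold between the sections, beside 7.49% of all genes. Egln2, the sensor PHD1, was close to its relative Egln1 between the sections, at 85.9 CPM in AEG-1-WT and 66.9 CPM in AEG-1-C75S (log2 ratio −0.36, −0.43 to −0.29).

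Of 10 glycolytic HIF targets compared along the axis, 1 was higher past 1.5-fold in AEG-1-WT (Aldoc, 0.61, 0.25 to 0.98, named after its value was seen), beside 5.88% of all genes, and 0 in AEG-1-C75S, beside 5.25%. None was lower by that ratio, and the medians of the list were −0.03 and −0.06 against 0.12 and 0.10 for all genes. In AEG-1-WT the intervals of 4 genes lay below 0 and those of 2, Aldoc and Pkm, above it. In AEG-1-C75S 3 lay below, Pkm among them, and 0 above. The share of all genes with such intervals in a single section was not counted. Between the sections 0 of 15 were past 1.5-fold, beside 7.49%. In the difference of axis changes 1 of 10 was higher and 1 lower past 1.5-fold, beside 3.22% and 3.01% of all genes.

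Of the other HIF targets, 14 could be compared along the axis in each section, with 1 higher and 2 lower past 1.5-fold in AEG-1-WT (5.88% and 3.93% of all genes) and 0 higher and 2 lower in AEG-1-C75S (5.25% and 2.73%). Ak4, a mitochondrial adenylate kinase, was lower at the central end in both, from 68.2 to 33.3 CPM in AEG-1-WT (log2 ratio −1.04, −1.25 to −0.82) and from 63.7 to 23.3 CPM in AEG-1-C75S (−1.45, −1.70 to −1.21). It thus ran opposite to Egln3 with a ratio of like size. The other lower gene was Ddit4, an inhibitor of mTORC1 chosen here after its values were seen, at −0.70 (−1.38 to −0.03) and −1.32 (−2.20 to −0.49). In the difference of axis changes 0 of 14 were higher and 2 lower past 1.5-fold, beside 3.22% and 3.01% of all genes. Between the sections, 2 of 17 were higher in AEG-1-C75S and 1 lower, beside 2.29% and 5.2% of all genes. Insig2, a regulator of sterol synthesis, went from 85.9 to 148 CPM (log2 ratio 0.78, 0.72 to 0.84). Angptl4, an inhibitor of lipoprotein lipase that also answers to fasting, went from 84.1 to 135 CPM (0.69, 0.63 to 0.75).

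Among VEGF ligands and receptors, 9 genes were compared. Nrp2, a coreceptor of VEGF family ligands on endothelium, was higher at the central end in both sections, from 16.2 to 26.5 CPM in AEG-1-WT (0.71, 0.38 to 1.03) and from 13.3 to 24.4 CPM in AEG-1-C75S (0.87, 0.53 to 1.22). Past 1.5-fold along the axis were 2 of 9 in AEG-1-WT and 1 of 9 in AEG-1-C75S, all higher, beside 5.88% and 5.25% of all genes. The medians of the list were 0.32 and 0.27, above the 0.17 and 0.16 of Vegfa itself, against 0.12 and 0.10 for all genes. None of the 9 differed by over 1.5-fold between the sections, beside 7.49% of all genes. In the difference of axis changes 1 of 9 was higher and 0 lower past 1.5-fold, beside 3.22% and 3.01% of all genes.

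Among pyruvate dehydrogenase subunits, kinases and phosphatases, the kinases differed from Pdk1. Between the sections Pdk1 was nearly equal, while Pdk4, the kinase that answers to fasting, went from 4.31 CPM (182 UMIs) to 13.5 CPM (561 UMIs), a log2 ratio of 1.64 (1.40 to 1.89), and Pdk2, the common liver kinase, from 136 to 85.3 CPM (−0.68, −0.74 to −0.62). These were the 1 higher and 1 lower of 12 genes compared, beside 2.29% and 5.2% of all genes. Along the axis the list held 2 of 10 past 1.5-fold in AEG-1-WT (5.88% of all genes) and 1 of 10 in AEG-1-C75S (5.25%), all higher at the central end, with medians of 0.33 and 0.18. Pdk4 was in both, at 1.30 (0.56 to 2.09) and 0.84 (0.44 to 1.26). No gene of 6 mitophagy factors was past 1.5-fold along the axis. The share of all genes past it either way was 9.81% for AEG-1-WT, against 7.98% for AEG-1-C75S. Between the sections none of the 6 was past 1.5-fold, beside 7.49% of all genes. In the difference of axis changes 1 of the 6 was, beside 6.23% of all genes. It was Fundc1, a mitophagy receptor named after its value was seen (0.67, with an interval that includes 0). Bnip3l, the relative of Bnip3, had axis log2 ratios of 0.19 (−0.06 to 0.45) and 0.17 (−0.07 to 0.42). In the NDRG family, Ndrg2 had 0.02 (−0.02 to 0.05) and 0.06 (0.03 to 0.10) along the axis and −0.29 (−0.31 to −0.28) between the sections. Of 3 family genes compared along the axis, 1 had an interval above 0 in AEG-1-WT and 1 below. The gene below was neither Ndrg1 nor Ndrg2. In AEG-1-C75S 2 lay above 0 and 0 below. The share of all genes with such intervals in a single section was not counted.

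**Figure D3:**
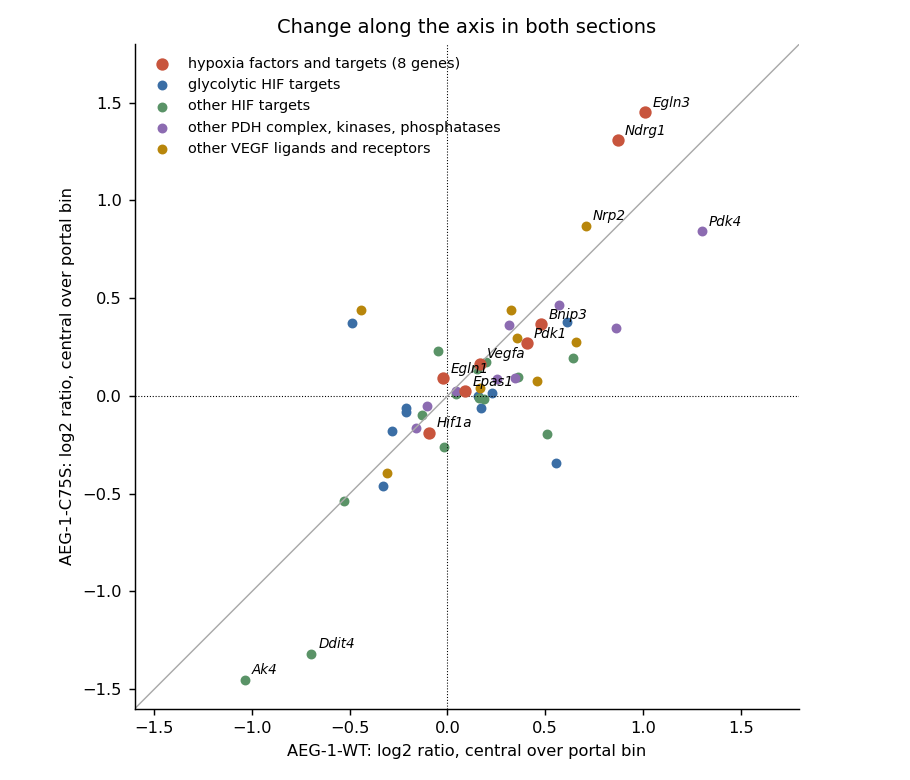
Log2 ratio of bin 5 over bin 1 in AEG-1-WT (x axis) and AEG-1-C75S (y axis) for the 8 genes (large red points) and the other genes of 4 lists (small points). The grey line marks equal ratios. Egln3 and Ndrg1 lie at the upper right above the line, Ak4 and Ddit4 at the lower left, and most listed genes near the centre.

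The 8 genes were also compared with all genes by the course of log2(CPM + 1) over the 10 bins of both sections, among 6664 genes with at least 500 UMIs in each section. The 10 points share 2 libraries and their depths, so the Pearson correlations are given as a description. Egln3 ran closest to Mcc (r = 0.985), Creb3 (0.983) and Nfe2l1 (0.980), Bnip3 to Bcl9l (0.983), G0s2 (0.981) and Cyp4f14 (0.972), and Pdk1 to Ptk2b (0.964), Cnbp (0.963) and Rdh7 (0.955). Vegfa ran closest to Retreg2 (0.991), Xdh (0.989) and Hgd (0.988), and Egln1 to Lima1 (0.95), C2cd2l (0.946) and Acy1 (0.941). Epas1 was closest to Ltn1 (0.959), Wdr55 (0.944) and Smim11 (0.939). Hif1a had the weakest matches, Asap3 (0.918), Myh9 (0.851) and Scyl2 (0.846), and Ndrg1 had too few UMIs to be searched. Within the 8, the highest values were between Egln3 and Bnip3 (0.869), Vegfa and Egln1 (0.858) and Egln3 and Pdk1 (0.822), and the lowest between Hif1a and Egln3 (−0.59).

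To see where cells other than hepatocytes bore on these genes, the 5% of spots richest in markers of each of 7 cell types (115 spots in AEG-1-WT, with 108 in AEG-1-C75S) were set against the other spots of the same section and bin. Of 96 comparisons with enough UMIs, 2 were past 1.5-fold, beside 4.85% over all genes, both of them Egln3 in AEG-1-C75S. It had 21 UMIs against 32.7 expected in spots rich in sinusoidal endothelium (log2 ratio −0.64, −1.33 to −0.03), where 1.23% of all genes were past 1.5-fold, and 23 against 34.6 in spots rich in stellate cells (−0.59, −1.25 to −0.00), where 2.31% were. In AEG-1-WT the same comparisons of Egln3 did not pass 1.5-fold.

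Hif1a was higher in several of these spot groups in AEG-1-WT, at 122 UMIs against 86.1 in spots rich in red blood cells (0.50, 0.23 to 0.76), 97 against 72.2 in those rich in vascular endothelium (0.43, 0.12 to 0.71) and 116 against 89.8 in those rich in connective tissue (0.37, 0.09 to 0.63). In AEG-1-C75S the same 3 groups had log2 ratios of −0.07 (−0.47 to 0.31), −0.02 (−0.41 to 0.34) and −0.01 (−0.38 to 0.34) for Hif1a. Groups of the same name were not alike in the 2 sections. Connective tissue markers were 18.3-fold over expected UMIs in AEG-1-WT and 8.51-fold in AEG-1-C75S, and vascular endothelium markers 2.58-fold and 2.46-fold. Connective tissue spots had medians of 18644 and 9962 UMIs, and red blood cell spots 17853 and 11407.5. The part of these differences in the ratios of the 8 genes was not tested. Epas1 had 608 UMIs against 490 in the connective tissue spots of AEG-1-WT (0.31, 0.20 to 0.43), against 0.00 (−0.15 to 0.15) in AEG-1-C75S. Egln1 was higher in the spots rich in cholangiocytes in both sections, with 62 against 44.7 UMIs in AEG-1-WT (0.47, 0.09 to 0.83) and 40 against 28.0 in AEG-1-C75S (0.52, 0.03 to 0.96). Vegfa was lower in the Kupffer cell spots of both, at −0.20 (−0.41 to −0.01) and −0.28 (−0.49 to −0.07). It was higher in the cholangiocyte spots of both, at 0.20 (0.04 to 0.35) and 0.20 (0.01 to 0.38). In AEG-1-WT only, Egln1 was higher in red blood cell spots (0.49, 0.10 to 0.85) and Hif1a in cholangiocyte spots (0.38, 0.10 to 0.64). In AEG-1-C75S these were 0.00 (−0.65 to 0.59, under 50 UMIs) and −0.04 (−0.40 to 0.29). Epas1 of AEG-1-WT was also higher in vascular endothelium spots (0.17, 0.04 to 0.30). It was so in cholangiocyte (0.18, 0.06 to 0.30) and red blood cell spots (0.16, 0.03 to 0.28). In AEG-1-WT Pdk1 was lower in vascular endothelium spots (−0.35, −0.68 to −0.05) and Vegfa in stellate cell spots (−0.25, −0.45 to −0.05). Vegfa of AEG-1-C75S was higher in red blood cell spots (0.22, 0.01 to 0.41). In the other section the intervals for these Epas1, Pdk1 and Vegfa pairs included 0. All of these stayed within 1.5-fold, and the share of all genes with intervals clear of 0 was not counted. The median gene was itself shifted in some of these groups. In AEG-1-WT it was at 0.18 in connective tissue, 0.16 in cholangiocyte, 0.08 in vascular endothelium and 0.04 in red blood cell spots. In AEG-1-C75S it was at 0.07 in cholangiocyte and 0.09 in red blood cell spots. The Hif1a interval in connective tissue spots of AEG-1-WT includes the median of its group. So do all intervals given for Egln1, Vegfa, Hif1a and Epas1 in cholangiocyte spots. The same held for Epas1 in vascular endothelium and red blood cell spots of AEG-1-WT. It also held for Vegfa in red blood cell spots of AEG-1-C75S.

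Ndrg1 had under 50 UMIs, counted and expected together, in 13 of its 14 sums, which were not among the 96. In AEG-1-WT it had 31 UMIs against 14.3 in the connective tissue spots (1.11, 0.56 to 1.62) and 25 against 12.5 in the cholangiocyte spots (0.999, 0.37 to 1.56). In AEG-1-C75S the same groups held 20 against 18.4 and 12 against 16.5. Past 1.5-fold either way in these groups were 14.6% and 12.8% of all genes compared in AEG-1-WT. In AEG-1-C75S the shares were 4.94% and 4.66%. These groups lay mostly at the portal end, where Ndrg1 was lowest.

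**Figure D4:**
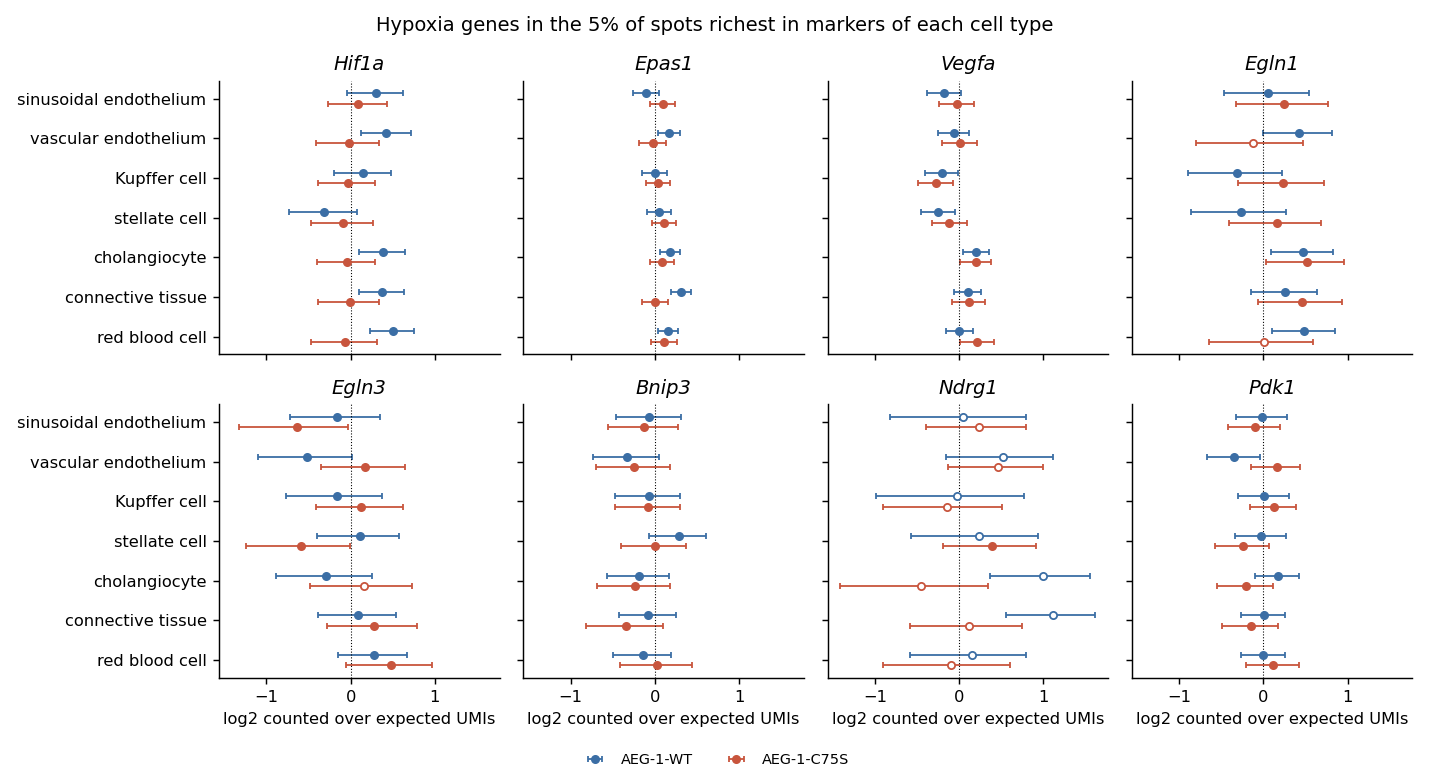
Log2 ratio of UMIs counted over UMIs expected (x axis) for each gene in the 5% of spots richest in markers of 7 cell types (y axis), in AEG-1-WT (blue) and AEG-1-C75S (red), with 95% exact Poisson intervals. Open points had fewer than 50 UMIs counted and expected together. Most points lie near 0, Egln3 of AEG-1-C75S lies left in sinusoidal endothelium and stellate spots, and Ndrg1 of AEG-1-WT lies right in cholangiocyte and connective tissue spots.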

How the data were processed

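Gene expression of 1 liver section each of an AEG-1-WT and an AEG-1-C75S mouse was measured with Visium probes. The authors made the deposited UMI counts with Space Ranger 2.0.1, on the mm10 reference with its probe set, as whole counts per gene and spot under tissue, without normalization. No other column was in the tables (0 columns of other samples). For 11 duplicated symbols the first row was taken. Probes differ in number and efficiency between genes, so levels were compared within a gene only.

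Spots with at most 50000 UMIs and 100 to 7000 genes were kept. UMIs were summed over a section or bin and scaled to 1000000 (CPM). Ratios needed 50 or more UMIs over the groups compared, and past 1.5-fold means a ratio over 1.5 either way. With 1 section per genotype there was no test. Intervals at 95% are exact Poisson for sums, exact binomial for ratios and normal on the log odds for differences of axis changes. They cover counting error only, and spots are not replicates. The allowance of a count of 0 is 3 counts per library. Expected UMIs in marker-rich spots came from the other spots of the same bin. Depth was 42246988 and 41674347 UMIs.

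Computation used python 3.11.15 with numpy 2.4.6, scipy 1.17.1, pandas 2.3.3 and matplotlib 3.10.9, and R 4.3.3 with edgeR 4.0.16 for TMM factors. The ratio and its counting interval were tried on simulated Poisson counts, which hold no spread between spots or animals. That checks the computation only, and the other steps were not simulated. The 8 genes and all lists were chosen with earlier results of these data known. Besides the 8, genes were named if past 1.5-fold with at least 100 UMIs and an interval clear of 0, along the axis in both sections or between the sections, and the 3 genes most like each of the 8. Arnt, Hif3a, Arnt2, Egln2, Bnip3l and Ndrg2 were named outside this rule. So were the list genes marked as named or chosen after their values were seen. Eloc, Tpi1, Eno1, Ldha, Mxi1, Higd1a, Ero1a and Hba-a1 were not analysed here. One further gene of the HIF target list is not reported here and was left out of its counts. The alternatives were no spot filter, thinning to 3000 UMIs, equal weight per spot, totals without the 20 most abundant genes, centring on the median gene and TMM factors. Others were other minimums (10 and 200 UMIs) and a limit of 0.32 on the log2 scale for ratios. Axis bins and depth classes were also given the same weights in both sections, by their spots in both together. Further ones were removal of the 10% of spots richest in bile duct and connective tissue markers, other axes, and fewer and wider axis bins. For marker-rich spots they were 10% of spots or no matching by bin. Comparison of the outer bins within 10 classes of total UMIs was added after the data were seen.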

Additional observations from a re-analysis of the deposited data

Results flagged for a closer look

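The axis ratio of Egln1, bin 5 over bin 1, had opposite signs in the sections, with log2 ratios of −0.0218 in AEG-1-WT, with 0.092 in AEG-1-C75S. The difference was 0.11 with a counting interval of −0.35 to 0.58, and relative to the median gene both values were below 0 (−0.14 and −0.00). Angptl4 also had opposite signs, at 0.1891 in AEG-1-WT, with −0.0148 in AEG-1-C75S, a difference of −0.20 (−0.40 to −0.01). With 1 section per genotype neither difference was tested against the spread between animals.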

How the results depend on the processing

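With a limit of 0.32 on the log2 scale in place of 0.58, the genes counted were 2 between the sections (1 higher, 1 lower), 4 along the axis in AEG-1-WT, 2 in the difference of axis changes and 17 of 96 in marker-rich spots. Giving bins and 10 depth classes the same weights in both sections left 0 between the sections. At least 200 UMIs left 1 along the axis in AEG-1-WT, thinning left 1 in AEG-1-C75S, where Ndrg1 fell under 50 UMIs (log2 ratio 1.69) and Egln3 was at 1.65, and counted 3 in AEG-1-WT (Egln3, Bnip3 at 0.93 and Pdk1 at 0.61), and all other spots of the section as reference left 1 in marker-rich spots. Of 304 values of the 8 genes under other settings, 284 stayed within their counting intervals and 20 moved outside them, some toward 0. Of these 304, 0 changed from past 1.5-fold to the opposite direction, which only ratios past 1.5-fold in the main setting could do. Smaller ratios changed sign under some settings, as that of Hif1a between the sections, from 0.02 to −0.09 after thinning. Thinning was 1 random draw. After it, the section ratio of Egln3 was 0.37 on the log2 scale and that of Ndrg1 1.30. Depth limits Ndrg1 most. Thinning left out 4 and 3 shallower spots. An axis from other zonation genes put 61.8% and 58.9% of spots in the same bin. No paired analysis was possible because each genotype had 1 section without a replicate number, and for the same reason no replicate could be left out.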

Other observations

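Some further genes of the lists, named after their values were seen, had axis ratios on the same side of 0 in both sections with intervals clear of 0. Gpi1, the glycolytic isomerase, had log2 ratios of −0.33 (−0.43 to −0.23) for AEG-1-WT and −0.46 (−0.56 to −0.37) for AEG-1-C75S, and Pgk1, which makes ATP in glycolysis, −0.28 (−0.46 to −0.11) and −0.18 (−0.35 to −0.01). Tfrc, the transferrin receptor, had −0.53 (−0.88 to −0.18) and −0.54 (−0.90 to −0.17). Kdr, the main VEGF receptor of endothelium, had 0.36 (0.20 to 0.51) and 0.30 (0.14 to 0.45). Between the sections, Hmox1, the haem oxygenase, was higher in AEG-1-C75S (0.45, 0.32 to 0.59) and the repressor Bhlhe40 lower (−0.38, −0.43 to −0.33). Pkm, a pyruvate kinase, had an interval above 0 along the axis of AEG-1-WT (0.56, 0.22 to 0.90) and below 0 in AEG-1-C75S (−0.34, −0.67 to −0.01).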
